A study of Mus musculus with 6 samples.

Results

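The genes described here are 10 members of the BCL2 family, which hold the balance between survival and death at the mitochondrion, in lung group 2 innate lymphoid cells (ILC2s). They were taken by symbol from the 22554 genes of the deposited count table, and all 10 had enough reads to be tested. They are the prosurvival genes *Bcl2*, *Bcl2l1*, *Mcl1*, *Bcl2a1b* and *Bcl2a1d*, the effectors *Bax* and *Bak1*, and the BH3-only genes *Bcl2l11*, *Bbc3* and *Pmaip1*. The 6 bulk RNA samples fall into an isotype control group (replicates 16, 17 and 18) and a CD200-Fc group (replicates 35, 36 and 38), with 3 in each. CD200-Fc joins CD200, the ligand of the inhibitory receptor CD200R, to the Fc part of an antibody. Both groups came from wild-type BALB/cByJ mice, female by the methods and aged 8 weeks by the labels, after 3 doses of rmIL-33 into the nose, each of 0.5 µg. Their ILC2s were sorted as lineage-negative cells with CD45, CD127 and ST2 on the surface, then cultured for 24 h with rmIL-2 and rmIL-7 at 10 ng/mL each and with either protein. The reporting summary mentions both female and male mice. The figure legends list rmIL-33 among the culture cytokines and the sequencing methods do not. The methods list CD200-Fc for mouse cells under a catalogue number that they also give for human CD200-Fc. The samples are not tied to named mice or cultures in the sources used here, so the spread behind each p-value may be only technical.

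BCL2 family proteins meet on the outer mitochondrial membrane. BAX and BAK1 form pores there that release cytochrome c, and the apoptosome and caspases then dismantle the cell. BCL2, BCL-xL (from *Bcl2l1*), MCL1 and A1 (from the *Bcl2a1* genes) hold them in check, and BH3-only proteins such as BIM (*Bcl2l11*), PUMA (*Bbc3*) and NOXA (*Pmaip1*) bind into the groove of the prosurvival proteins and disarm them. In lymphoid cells, cytokines of the common gamma chain family such as IL-2 and IL-7 keep these survival proteins up. Much of the family's control acts on protein binding and, for MCL1, on protein turnover, which RNA does not measure.

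The short BH3 segment is what the family shares, and it is shown here because it is the part through which the members bind each other. In the coding sequences of GENCODE M21, a stretch of 6 codons that starts with leucine and ends with a small residue and aspartate was found once in each of 7 members. Each line gives 36 bases of coding sequence, and capitals mark the leucine codon and the last pair of codons.
Bcl2: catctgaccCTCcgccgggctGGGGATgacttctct
Bcl2l1: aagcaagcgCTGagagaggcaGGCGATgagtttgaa
Mcl1: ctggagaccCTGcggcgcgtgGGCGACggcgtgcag
Bax: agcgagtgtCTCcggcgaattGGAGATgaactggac
Bak1: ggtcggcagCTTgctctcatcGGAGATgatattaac
Bcl2l11: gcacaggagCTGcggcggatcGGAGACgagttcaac
Bbc3: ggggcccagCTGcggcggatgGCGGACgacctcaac
Around these codons the bases differ from gene to gene. *Pmaip1* was not searched. No match to this pattern was found in *Bcl2a1b* or *Bcl2a1d*, which says only that these letters are not there. The coding sequences of *Bcl2a1b* and *Bcl2a1d* are both 519 bases long and differ at 6 bases (98.84% identical), with a shared run of 217 bases. The first 120 bases are shown because the split of reads between these genes rests on such differences. Capitals mark the 3 that fall in this stretch.
Bcl2a1b: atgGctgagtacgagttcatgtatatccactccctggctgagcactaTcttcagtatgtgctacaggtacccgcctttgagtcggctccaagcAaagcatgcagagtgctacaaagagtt
Bcl2a1d: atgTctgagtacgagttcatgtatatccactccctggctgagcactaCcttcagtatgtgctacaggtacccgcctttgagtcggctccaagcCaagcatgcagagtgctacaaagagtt
A read that covers none of the marked bases cannot be placed by sequence in this stretch. These are C57BL/6J reference sequences, and the mice were BALB/cByJ.

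*Bcl2l1* was lower in ILC2s cultured with CD200-Fc, and it was the only member that passed the test. The level dropped by 24.4%, a log2 fold change of -0.40. *Bcl2* and *Bax* had lower values and *Mcl1* higher values in every CD200-Fc library than in any isotype library, by 0.14 to 0.26 on the log2 scale, and none of these passed the adjusted test. *Bcl2l11*, *Pmaip1*, *Bak1*, *Bbc3*, *Bcl2a1b* and *Bcl2a1d* overlapped between the groups. Levels are CPM, read counts scaled to a common library size by TMM, the log2 fold change is CD200-Fc over isotype, and tests are edgeR quasi-likelihood tests with Benjamini-Hochberg adjustment over 14124 genes, called at an adjusted p under 0.05.

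**Figure D1:**
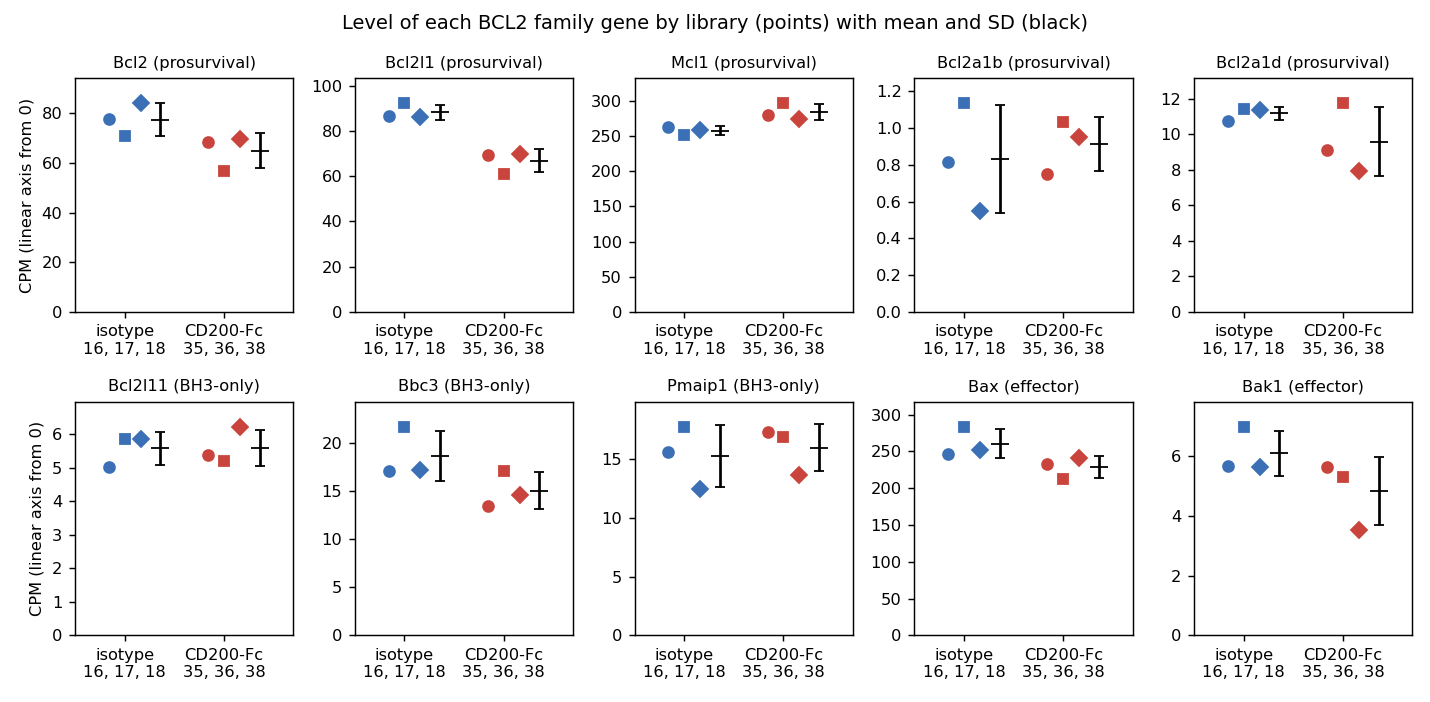
CPM of the 10 members in each library, on linear axes from 0. Points are libraries (circle, square and diamond for replicates 16, 17 and 18 in blue and 35, 36 and 38 in red), and black bars are the mean and SD of 3. The *Bcl2l1* points with CD200-Fc lie between 61.1 and 70.0 CPM, all below the isotype points, which start at 86.2.

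Of the 10 members, 0 were called higher and 1 was called lower. Over all genes tested, 1.48% were called higher and 0.595% lower. By an unadjusted p under 0.05, 1 member was higher (*Mcl1*) and 4 were lower (*Bcl2*, *Bcl2l1*, *Bbc3* and *Bax*), where 17.1% of all genes reached that p in either direction. DESeq2 and limma-trend likewise called 0 members higher and 1 lower. Of all genes, DESeq2 called 569 higher and 312 lower, and limma-trend called 203 higher and 163 lower. DESeq2 gave 3 of the 10 members no adjusted p. The groups did not overlap for 1 member with CD200-Fc higher and for 3 with it lower, where 11.6% and 11.2% of all genes did so. The median log2 fold change of the members was -0.20, and that of all genes was -0.0035. For any single gene, the exact permutation test of 3 samples against 3 can reach p = 0.1 at the lowest.

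**Figure D2:**
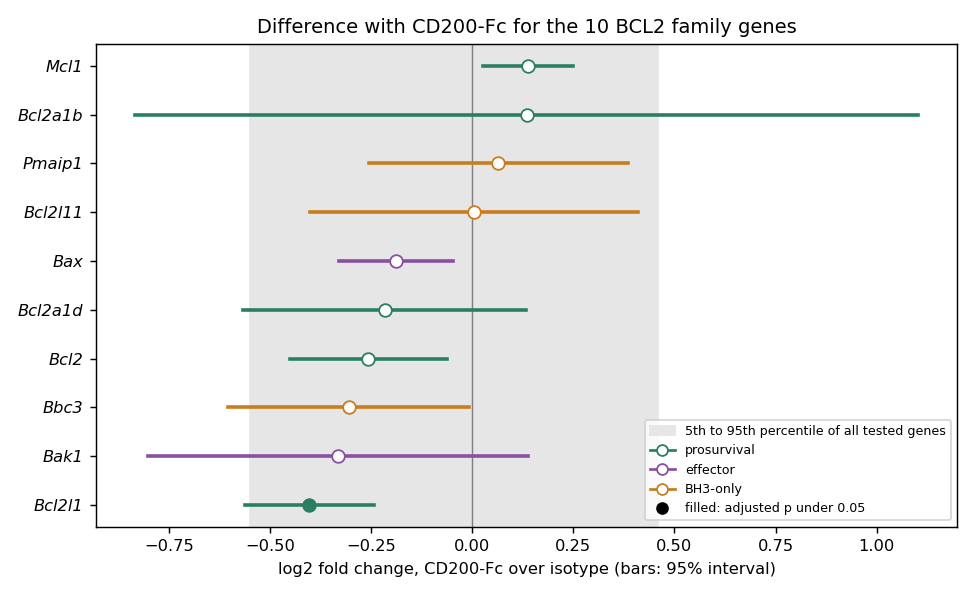
Log2 fold change of each member, CD200-Fc over isotype, with its 95% interval, coloured by role. Grey marks the 5th to 95th percentile of all tested genes (-0.55 to 0.46). All 10 points lie within the grey range, and the filled point, *Bcl2l1*, is the gene that passed the adjusted test.

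The prosurvival gene *Bcl2l1*, which encodes BCL-xL, is at chromosome 2, positions 152780668 to 152831729 (mm10). It had 86.5, 92.3 and 86.2 CPM in isotype replicates 16, 17 and 18 and 69.6, 61.1 and 70.0 CPM in CD200-Fc replicates 35, 36 and 38. Every CD200-Fc library lay below every isotype library, on 1689 to 2020 counts each. The means were 88.3 ± 3.41 CPM with isotype and 66.9 ± 5.03 CPM with CD200-Fc (SD, n = 3 each). On the log2 scale the change had a standard error of 0.07 and a 95% interval of -0.56 to -0.24 (edgeR adjusted p = 0.0172), at percentile 8.00 of all tested genes. The gene did not pass without CD200-Fc replicate 35 (log2 fold change -0.43, edgeR adjusted p = 0.0669) or replicate 36 (-0.34, 0.0642), nor without isotype replicate 17 and CD200-Fc replicate 36 together (-0.31, 0.0759), a fit chosen after the data were seen.

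Some markers of ILC2s also differed between the groups. The summed level of 9 ILC2 markers was 6485 to 6584 CPM with isotype and 7170 to 7309 CPM with CD200-Fc. Of the 9, 3 were called, *Klrg1*, *Il2ra* and *Ptprc*, all higher, where 1.48% of all genes were called higher and 0.595% lower. The other 6 did not pass, and *Rora* (log2 fold change -0.23, edgeR adjusted p = 0.0540), *Gata3* (-0.065) and *Thy1* (-0.0059) had negative values, so the list did not move one way. *Epcam* had 24.8 to 25.9 CPM with isotype and 29.8 to 35.3 with CD200-Fc, while the lung epithelial genes *Sftpc* and *Scgb1a1* were at 0. *Lyz2*, a macrophage and monocyte gene, was at 9.78 CPM in CD200-Fc replicate 38 and at most 1.74 in the other libraries, and the 4 macrophage and monocyte markers summed to 0.257 to 2.79 CPM with isotype and 0.0787 to 10.7 with CD200-Fc. The *Bcl2l1* level of replicate 38 was 70.0 CPM, next to 69.6 CPM in replicate 35, which had 0 CPM of *Lyz2*. Of 20 markers of other cell types in the table, 16 stayed under 10 CPM in every library, and the highest was the dendritic cell gene *Xcr1* at 39.6 CPM (the summed dendritic markers ran from 36.4 to 39.6 CPM over both groups). That sum was nearly all *Xcr1*, since *Itgax*, the other dendritic marker in the table, had 0 to 1.13 CPM. The 4 T cell markers summed to 25.5 to 29.2 CPM with isotype and 24.7 to 28.3 with CD200-Fc, most of it *Cd3g*. The sums were at most 0.414 CPM for the B cell marker, 0.444 for NK cells and 7.60 for mast cells and basophils, and 18.5 to 26.3 for the endothelial marker. Eosinophils had no marker in the table and were not checked, and B cells and endothelium had 1 marker each. The part of these markers in the *Bcl2l1* result was not tested. In bulk RNA, fewer cells of a type and less RNA per cell cannot be told apart. *Cd200r1*, which encodes the receptor for CD200, was at 189 ± 11.9 CPM with isotype and 205 ± 7.47 CPM with CD200-Fc (SD, n = 3 each), and its log2 fold change of 0.11 (standard error 0.06) did not pass the test (edgeR adjusted p = 0.353).

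*Bcl2*, the founding prosurvival gene and a guardian of lymphocytes at rest, lies on chromosome 1 from 106538178 to 106714275. It had 77.7, 70.9 and 84.1 CPM in the isotype libraries and 68.3, 56.8 and 69.7 CPM in the CD200-Fc libraries, in the order used above. The groups were separated by a narrow gap, between 69.7 and 70.9 CPM. The means were 77.5 ± 6.58 and 64.9 ± 7.06 CPM (SD, n = 3 each), and the log2 fold change of -0.26 (standard error 0.09, 95% interval -0.45 to -0.06) did not pass (edgeR adjusted p = 0.155). Leaving out each library in turn gave -0.32 to -0.17, always negative, with the smallest change without CD200-Fc replicate 36.

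*Mcl1*, whose protein is made and destroyed quickly and which lymphocytes need, stood in the other direction. It lies on chromosome 3 from 95658788 to 95663177. It had 264, 252 and 259 CPM with isotype and 281, 297 and 275 CPM with CD200-Fc, so every CD200-Fc library was above every isotype library. The means were 258 ± 6.02 and 284 ± 11.4 CPM (SD, n = 3 each). Its log2 fold change of 0.14 (standard error 0.05, 95% interval 0.03 to 0.25) did not pass (edgeR adjusted p = 0.181), on 5102 to 9766 counts a library. CD200-Fc replicate 36, the deepest library, was the lowest of the 6 for *Bcl2*, *Bcl2l1* and *Bax* and the highest for *Mcl1* and *Bcl2a1d*. Isotype replicate 17 was the highest for 6 members. In the fit without both of these libraries, *Bcl2*, *Bax* and *Mcl1* kept their direction.

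The A1 genes were weakly expressed. *Bcl2a1d*, on chromosome 9 from 88723285 to 88731915, had 10.7, 11.4 and 11.4 CPM with isotype and 9.09, 11.7 and 7.91 CPM with CD200-Fc. CD200-Fc replicate 36 lay above all isotype libraries and the other 2 lay below them, and the log2 fold change was -0.22 (95% interval -0.57 to 0.13, edgeR adjusted p = 0.549). It ran from -0.39 without CD200-Fc replicate 36 to -0.098 without CD200-Fc replicate 38. *Bcl2a1b*, on the same chromosome from 89199209 to 89207828, had 11 to 34 counts a library, or 0.547 to 1.13 CPM. Its log2 fold change of 0.13 had an interval of -0.83 to 1.10 (edgeR adjusted p = 0.917), so no difference was detectable at this depth. Since these near-identical genes can share reads, the division between them is uncertain. Summed over all rows of the *Bcl2a1* genes in the table, the level was 12.4 ± 0.653 CPM with isotype and 10.7 ± 2.18 CPM with CD200-Fc (SD, n = 3 each), and the log2 fold change of the sum was -0.22 (edgeR adjusted p = 0.541).

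Of the 2 effectors, *Bax* was the more abundant. *Bax*, on chromosome 7 from 45461697 to 45466899, had 247, 283 and 252 CPM with isotype and 233, 212 and 241 CPM with CD200-Fc, without overlap. The means were 260 ± 19.5 and 229 ± 14.8 CPM (SD, n = 3 each), and the log2 fold change of -0.19 (standard error 0.07, 95% interval -0.33 to -0.05) did not pass (edgeR adjusted p = 0.152). With offsets for GC content and transcript length it was -0.09 (edgeR adjusted p = 0.511), and without isotype replicate 17 and CD200-Fc replicate 36 together it was -0.07 (edgeR adjusted p = 0.558). *Bak1*, on chromosome 17 from 27019810 to 27029010, had 5.65, 6.96 and 5.62 CPM with isotype and 5.63, 5.29 and 3.52 CPM with CD200-Fc. CD200-Fc replicate 38 was the low library, and the groups overlapped by a small margin. Its log2 fold change was -0.33 (95% interval -0.80 to 0.14, edgeR adjusted p = 0.482), on 85 to 174 counts, and was -0.15 without CD200-Fc replicate 38.

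The BH3-only genes showed no difference that passed the test. *Bbc3*, which encodes PUMA and is a classical target of p53, lies on chromosome 7 from 16308393 to 16318206. It had 17.2, 21.7 and 17.2 CPM with isotype and 13.5, 17.2 and 14.6 CPM with CD200-Fc, so that CD200-Fc replicate 36 met the isotype range at its lower end. With a 95% interval of -0.60 to -0.01, its log2 fold change of -0.31 did not pass (edgeR adjusted p = 0.274), and it was -0.19 without isotype replicate 17. *Bcl2l11*, which encodes BIM, the BH3-only protein that rises when lymphocytes lose cytokine, lies on chromosome 2 from 128126038 to 128162548. It had 5.01, 5.87 and 5.87 CPM with isotype and 5.39, 5.20 and 6.21 CPM with CD200-Fc. The log2 fold change was 0.0044 (edgeR adjusted p = 0.995), and its interval of -0.40 to 0.41 leaves room for a difference as large as that of *Bcl2l1*. *Pmaip1*, which encodes NOXA, a partner of MCL1, had 15.6, 17.7 and 12.5 CPM with isotype and 17.3, 16.9 and 13.7 CPM with CD200-Fc. These overlapped almost fully (log2 fold change 0.06, 95% interval -0.26 to 0.39, edgeR adjusted p = 0.874).

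Because the proteins act in pairs, the ratio of 2 transcripts in the same library was taken for 4 pairs whose products are known to bind each other. Such a ratio does not depend on how libraries are scaled, and it is a description without a test, on transcripts and not on proteins. The log2 ratio of *Bcl2l1* to *Bcl2l11* was 4.11, 3.97 and 3.88 in the isotype libraries and 3.69, 3.55 and 3.49 in the CD200-Fc libraries. The groups did not overlap, and the means were 3.99 ± 0.117 and 3.58 ± 0.100 (SD, n = 3 each). *Bcl2l11* itself hardly moved (log2 fold change 0.0044), so this gap restates the change of *Bcl2l1* (-0.40) and is not a separate result. The log2 ratio of *Bcl2* to *Bcl2l11* was 3.80 ± 0.184 with isotype and 3.53 ± 0.114 with CD200-Fc, and that of *Bcl2* to *Bax* was -1.75 ± 0.219 and -1.82 ± 0.0703 (SD, n = 3 each). Both overlapped between the groups. So did that of *Mcl1* to *Pmaip1*, at 4.09 ± 0.274 and 4.16 ± 0.158 (SD, n = 3 each).

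**Figure D3:**
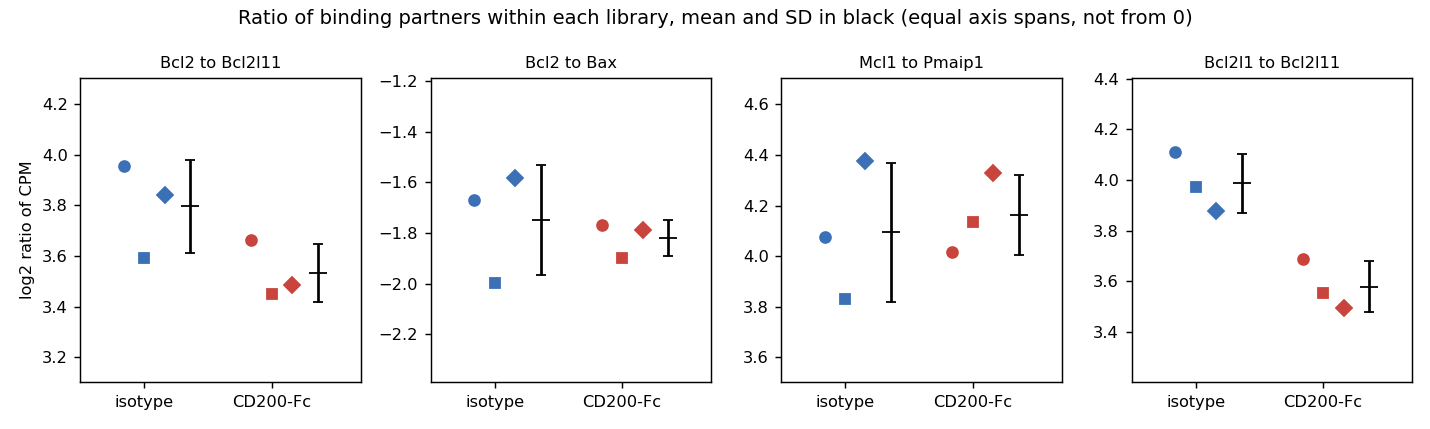
Log2 ratio of CPM for 4 pairs of members within each library, with points as libraries (replicates in the order used above) and black bars as mean and SD of 3. The axes have equal spans and do not start at 0. The groups are apart only for *Bcl2l1* to *Bcl2l11*, between 3.69 and 3.88. That gap restates the change of *Bcl2l1*, since *Bcl2l11* hardly moved.

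Between genes, levels were compared per length, as CPM per kilobase of the longest annotated transcript, in the isotype samples. *Bax* was highest at 300.4 ± 22.5, then *Mcl1* at 75.5 ± 1.76 and *Bcl2l1* at 34.4 ± 1.33 (SD, n = 3 each). *Bcl2a1d* followed at 13.0 ± 0.431, and then *Bcl2* at 10.8 ± 0.915 and *Bbc3* at 10.3 ± 1.44, which did not differ beyond their spread. *Pmaip1* was at 5.60 ± 0.965, *Bak1* at 2.55 ± 0.319, *Bcl2l11* at 1.11 ± 0.0985 and *Bcl2a1b* at 1.02 ± 0.360, and the last pair did not differ beyond their spread. The choice of transcript matters, since with the shortest coding transcript *Mcl1* was at 301 ± 7.02 and *Bax* at 325 ± 24.4 CPM per kilobase, whose libraries ran from 293 to 307 and from 308 to 353. *Bax*, *Mcl1* and *Bcl2l1* stayed the first 3 with either length, and the order below them changed.

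Promoter sequences are shown for *Bcl2l1* and *Mcl1*, the prosurvival genes that stood in opposite directions. RefSeq (GRCm38.p6) gave 14 windows of 300 bases, 250 before and 50 after a start site, for 9 of the members. They were searched on both strands for TTCNNNGAA, letters bound by STAT factors, and for GGGNNNNNCC. The latter is a loose form of the NF-κB site that leaves its middle letters open, so not every match fits the site. With no STAT match in a member window, the motifs did not overlap there. TTCNNNGAA was in 0 of the 14 windows and in 8.3% of all 32851 windows. GGGNNNNNCC was in 11 of the 14 windows and in 50.8% of all windows. Its fixed letters are all G or C, and the part of GC content in these shares was not tested. Among the 14, 2 windows of *Bbc3* (chr7:16310011-16310310 and chr7:16310181-16310480) overlap and were counted separately. Capitals mark GGGNNNNNCC on either strand, in the second of 3 *Bcl2l1* windows and in the *Mcl1* window.
Bcl2l1 (chr2:152830668-152830967, minus strand): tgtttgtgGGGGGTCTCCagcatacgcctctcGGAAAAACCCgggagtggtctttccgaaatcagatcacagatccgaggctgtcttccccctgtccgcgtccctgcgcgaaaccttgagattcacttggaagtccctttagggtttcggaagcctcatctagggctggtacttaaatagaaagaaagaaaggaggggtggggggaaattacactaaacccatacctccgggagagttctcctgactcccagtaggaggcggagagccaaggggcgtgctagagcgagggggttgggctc
Mcl1 (chr3:95658471-95658770, plus strand): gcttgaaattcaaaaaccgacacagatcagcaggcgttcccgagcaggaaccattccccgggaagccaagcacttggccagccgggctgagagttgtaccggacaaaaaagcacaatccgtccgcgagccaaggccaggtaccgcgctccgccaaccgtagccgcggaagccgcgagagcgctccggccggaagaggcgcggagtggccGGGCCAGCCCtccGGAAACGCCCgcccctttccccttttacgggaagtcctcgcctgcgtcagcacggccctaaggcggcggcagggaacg
The other 2 windows of *Bcl2l1* held no match, and which start site these cells used was not measured. The *Mcl1* window had a GC content of 65.7% and the printed *Bcl2l1* window 55.7%, where the median of all windows was 52.7%. GC content was 76.0% for *Bcl2*, 71.0% and 74.0% for *Bcl2l11*, and 76.0%, 74.7% and 78.0% for *Bbc3*. It was 57.3% for *Bax* and 58.3% for *Bak1*. Below the median were *Bcl2a1d* (44.3%), *Bcl2a1b* (46.7%) and the other windows of *Bcl2l1* (49.3% and 52.3%). A match is a description of letters and not of a bound site.

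The wider death pathway gave no called gene in the lists of related genes. The lists held 97 genes, of which 94 were in the table and 91 were tested. By edgeR 0 of the 91 were called higher or lower, where 1.48% of all genes were called higher and 0.595% lower. Without adjustment, 11 had a p under 0.05 with a higher and 10 with a lower level, where 17.1% of all genes reached that p in either direction, the share to set beside each count by unadjusted p that follows. The median log2 fold change over the lists was -0.0092. DESeq2 called 5 higher (*Ccng1*, *Naip2*, *Rps6ka1* and *Usp9x* among them) and 4 lower (*Cdkn1a*, *Dynll1*, *Rela* and *Trp53*), and limma-trend called *Usp9x* higher and *Dynll1* lower. Of all genes, DESeq2 called 569 higher and 312 lower, and limma-trend called 203 higher and 163 lower. The genes named next are among the 2 of each list with the smallest unadjusted p, and none passed edgeR's adjusted test.

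Among other BCL2 family genes, 1 prosurvival gene, 1 effector, 4 BH3-only and 5 divergent members were tested. The prosurvival *Bcl2l2* had 1.20 to 1.92 CPM with isotype and 1.42 to 2.36 with CD200-Fc, and the effector *Bok* had 7.81 to 9.67 and 7.39 to 10.4 CPM. The BH3-only gene *Bad*, whose product is held inactive by growth factor signals, had 36.7 to 39.0 CPM with isotype and 31.3 to 35.3 with CD200-Fc (log2 fold change -0.19, edgeR adjusted p = 0.313). *Bmf*, a BH3-only gene linked to the cytoskeleton, reached at most 1.09 CPM. *Bcl2l15* had 5.52 to 8.93 CPM with isotype and 4.10 to 5.38 with CD200-Fc (log2 fold change -0.60, edgeR adjusted p = 0.157). *Bnip3*, which takes part in mitophagy, had 75.0 to 77.3 and 81.6 to 89.2 CPM (log2 fold change 0.15, edgeR adjusted p = 0.269). *Bad*, *Bcl2l15* and *Bnip3* did not overlap between the groups, while *Bcl2l2*, *Bok* and *Bmf* did. Of all genes, 11.6% did not overlap with CD200-Fc higher and 11.2% with it lower. These shares also belong beside the genes named below as not overlapping. Only *Bcl2l15* (lower) and *Bnip3* (higher) of these 11 genes had an unadjusted p under 0.05.

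The 15 genes listed for the apoptosome and caspases held 4 higher and 1 lower by an unadjusted p under 0.05. *Htra2*, a mitochondrial protease, had 69.1 to 77.0 CPM with isotype and 60.4 to 63.9 with CD200-Fc (log2 fold change -0.21, edgeR adjusted p = 0.154). Of 9 caspase inhibitors 1 was higher and 0 lower at that p, namely *Naip2* (log2 fold change 0.55, edgeR adjusted p = 0.102). Its paralog *Naip6*, with which it may share reads, was at 0.63 (edgeR adjusted p = 0.398). *Naip2* and *Naip6* are known as sensors of bacterial proteins in the inflammasome as well as by their place in this family.

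For p53 and its targets, 19 genes were tested, of which 2 had higher and 5 had lower values by an unadjusted p under 0.05. Their median log2 fold change was -0.11. *Cdkn1a*, the cell cycle inhibitor p21, had 288, 337 and 292 CPM with isotype and 251, 282 and 247 CPM with CD200-Fc, without overlap (log2 fold change -0.23, edgeR adjusted p = 0.0998). *Ccng1*, another p53 target, had 326 to 353 CPM with isotype and 372 to 415 with CD200-Fc (log2 fold change 0.20, edgeR adjusted p = 0.0702). These targets stood in opposite directions, and *Bbc3* and *Pmaip1* had log2 fold changes of -0.31 and 0.06. Of 15 transcription factors known to act on members, 0 were higher and 1 lower at that p, *Rela*, a subunit of NF-κB, with 138 to 148 CPM with isotype and 117 to 132 with CD200-Fc (log2 fold change -0.20, edgeR adjusted p = 0.118). *Myc* was at -0.14 (edgeR adjusted p = 0.321).

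Of 11 tested genes that act on the stability or placement of MCL1 and BIM, 3 had higher and 1 had lower values by an unadjusted p under 0.05. *Usp9x*, which removes ubiquitin from MCL1, had 84.1, 61.9 and 88.2 CPM with isotype and 98.8, 110 and 104 CPM with CD200-Fc. Isotype replicate 17 was the low library, and its log2 fold change of 0.42 (standard error 0.11) did not pass (edgeR adjusted p = 0.0565). *Dynll1*, the dynein light chain that tethers BIM to microtubules, had 437, 501 and 459 CPM with isotype and 412, 405 and 399 CPM with CD200-Fc (log2 fold change -0.20, edgeR adjusted p = 0.0707). Neither gene overlapped between the groups. Of 11 genes listed as partners of the outer mitochondrial membrane, 0 were higher and 1 lower at that p, the hexokinase gene *Hk2* (log2 fold change -0.27, edgeR adjusted p = 0.211). *Tmbim6*, from the same list, was at -0.12 (edgeR adjusted p = 0.356).

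The tested genes whose log2 CPM followed *Bcl2l1* most closely over the 6 libraries were *Nop16* (Pearson r = 0.998) and *Nop2* (r = 0.994), both of which act in ribosome assembly. This is a description over samples that share the group difference. *Nop16* had 77.0 ± 2.07 CPM with isotype and 62.6 ± 4.16 with CD200-Fc (SD, n = 3 each), and its log2 fold change was -0.30 (edgeR adjusted p = 0.0514). *Nop2* had 122 ± 2.25 and 107 ± 3.49 CPM (SD, n = 3 each), and its log2 fold change was -0.19 (edgeR adjusted p = 0.114).

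**Figure D4:**
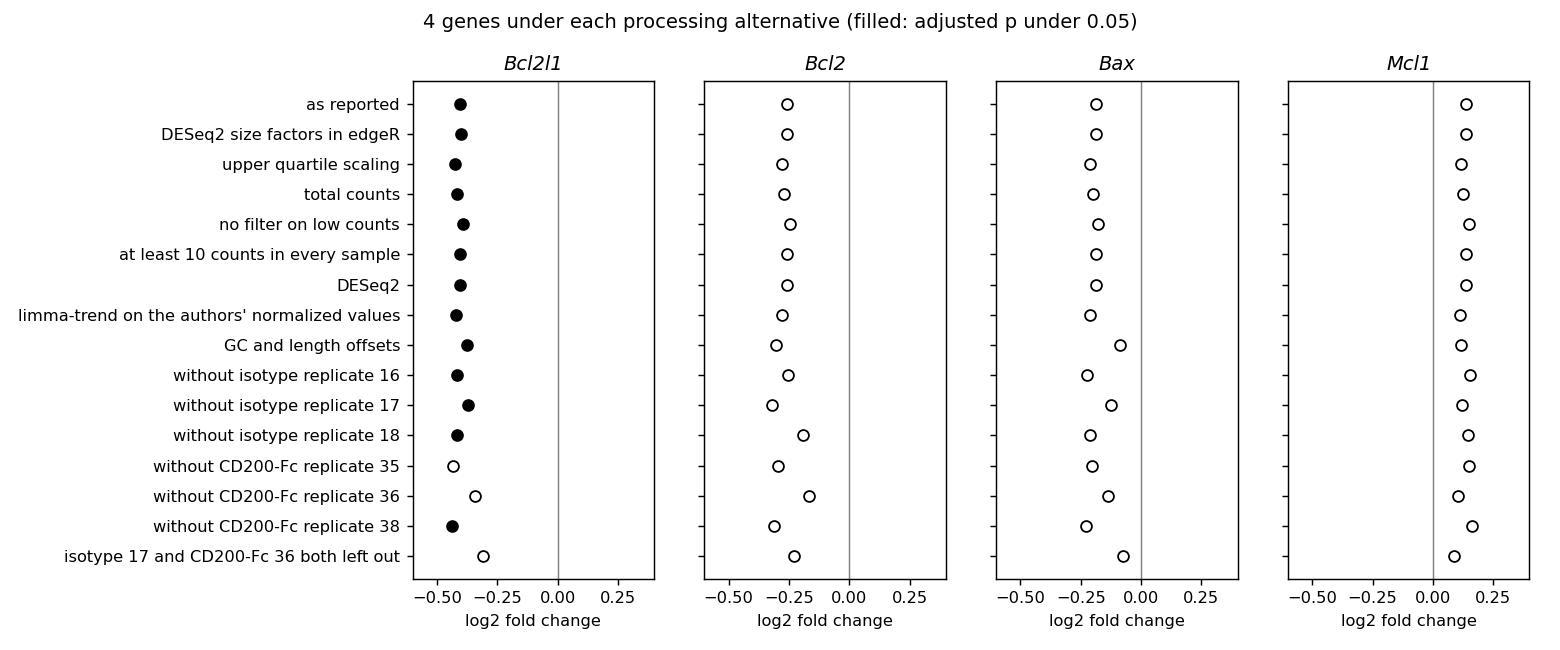
Log2 fold change of *Bcl2l1*, *Bcl2*, *Bax* and *Mcl1* as reported and under each processing alternative, filled where the adjusted p was under 0.05. *Bcl2l1* stays between -0.44 and -0.31 and is unfilled in 3 of the alternatives, and the other 3 genes are unfilled throughout and keep their side of 0.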

How the data were processed

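Bulk RNA-sequencing was analysed for 6 samples, 3 per group. Per the labels and methods, the authors used bcl2fastq 2.17.1.14 for demultiplexing and STAR 2.5.3a for alignment to mm10, and Partek estimated gene counts by expectation maximization. The deposited expected counts, 20096555 to 33321709 a library, are not whole and not normalized, and this method divides reads shared by paralogs. Every CD200-Fc library (24038189 to 33321709) was deeper than every isotype library (20096555 to 23239853). Depth and treatment therefore cannot be told apart by design, and the part of depth was not tested. Which annotation release the authors used is not given in the sources. The authors' normalized values (signal, 17194 genes) equal the expected count plus 1 times 1 factor a sample, as read from the values, and were used only in an alternative. In the count table, 21 symbols had become dates, none of them a member. Markers and list genes that are not in the table were not analysed here.

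Counts were rounded, filtered with filterByExpr, scaled by TMM and tested with edgeR 4.0.16 (R 4.3.3) by glmQLFit and glmQLFTest. The common biological coefficient of variation was 10.8%. Standard errors are the log2 fold change over the root of F, intervals are 95% intervals of the fit, and log2 CPM used a prior count of 2. On simulated data for this comparison, the test recovered 83% of the genes set to change 1.5-fold and 98% of those set to change 2-fold, and it called 14 of 13625 genes left unchanged. The changed genes were drawn only from those with an average log2 CPM above 2. The estimate of every member was smaller than a 1.5-fold change, so these shares do not tell how often such changes would be missed. The methods' own test, lognormal with shrinkage in Partek, was not run. Alternatives were DESeq2 1.42.0, limma-trend 3.58.1 on log2 of the authors' normalized values plus 1, other scalings and filters, GC and length offsets (loess, span 0.3) over the 13948 tested genes with a length in GENCODE M21 (98.8%), and leaving out libraries. Figures used Python 3.11.15 and matplotlib 3.10.9.

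Named were all members, *Cd200r1*, the markers, called list genes and the 2 others of each list with the smallest unadjusted p, and the 2 genes most correlated with a called member. A gene that this rule names is not reported here. Genes that only an alternative called were named after their values were seen. The members and lists were chosen with earlier results of these data known.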

Additional observations from a re-analysis of the deposited data

How the results depend on the processing

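Of 147 member log2 fold changes under alternatives, 136 kept their direction and their side of the threshold, 3 of *Bcl2l1* lost the call, and 8 of members that were never called changed sign. *Bcl2l1* had edgeR adjusted p-values of 0.0264 to 0.0669 as each library was left out, and 0.0759 without isotype replicate 17 and CD200-Fc replicate 36 together, where 0 members were called. Fits without a library have fewer samples. The count of members called lower was 0 to 1 as each library was left out. The sign changes were those of *Bcl2l11*, at -0.019 with upper quartile scaling, -0.0078 with total counts, -0.019 with limma-trend and -0.050 with GC and length offsets, and between -0.075 and 0.057 in fits without each library in turn. *Bcl2a1b* ran from -0.085 to 0.41 and *Pmaip1* from -0.057 to 0.18 in those fits. DESeq2's filter gave 3 members (*Bak1*, *Bcl2a1b* and *Bcl2l11*) no adjusted p.

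Over all genes, 209 were called higher and 84 lower. The counts were 316 and 134 with at least 10 counts in every sample, 569 and 312 with DESeq2, 70 and 27 without isotype replicate 17 and CD200-Fc replicate 36, and 28 to 250 and 17 to 93 as each library was left out, and limma-trend called 163 lower. Of the list genes, 2 were called higher without a filter, 3 with at least 10 counts in every sample, 5 with DESeq2, 1 with limma-trend and 3 with GC and length offsets, and 0 to 2 as each library was left out. Called lower were 4 with DESeq2, 1 with limma-trend and 0 to 1 as each library was left out. *Usp9x* passed in 6 of these settings. No paired analysis was possible because the sources used here do not say which isotype and CD200-Fc samples, if any, belong together. Depth limits *Bcl2a1b*, *Bak1* and *Bcl2l11*, at 11 to 174 counts a library.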
